A study of Mus musculus with 29 samples.

Results

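The chemokine receptor gene Cxcr3 and the genes of its ligands, Cxcl9, Cxcl10 and Cxcl11, were taken from the count table by their symbols, and made up 4 of the 24421 genes listed. All 4 passed the filter on low counts in each of the 10 comparisons. The RNA-seq libraries came from 29 female C57BL/6J mice, 1 library per mouse, that were injected intraperitoneally (IP) with YTN16 cells, a transplantable mouse gastric cancer line, when 5 to 6 weeks old. Every mouse, treated or not, therefore carried the same implanted line in a wild-type host, and no group lacked the tumor injection. At 3wk (day 21) there were 5 untreated mice, which received PBS, and 5 mice given anti-PD1 and anti-CTLA4 together (dual ICI, that is, both immune checkpoint inhibitors). The 5wk mice (day 35) were 5 left untreated, 5 given anti-PD1 alone, 4 given anti-CTLA4 alone and 5 given dual ICI. The labels hold the last 5 as a single group, which the study's mouse numbers split by outcome into 2 dual ICI-uncured mice (1 and 5) and 3 dual ICI-cured mice (2, 3 and 4). The labels do not state the outcome, and the split rests on reading the replicate number in each label as the mouse number, so the comparison of all 5 is given too. RNA was made from peritoneum with or without tumor nodules, which the labels call tumor tissue.

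CXCR3 is a G protein-coupled receptor carried mainly by effector CD8 T cells, Th1 CD4 T cells and NK cells. Its ligands CXCL9 and CXCL10 are secreted by macrophages, dendritic cells, stromal cells and tumor cells after interferon gamma acts on them, and CXCL10 also answers to type I interferon and NF-kappaB. The axis is known for drawing T cells into tumors and for its part in the response to checkpoint blockade. CXCL11 binds the same receptor, but C57BL/6 mice carry a frameshift in Cxcl11 and make no functional protein from it, so its counts here report a transcript only.

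The 3 ligand genes lie side by side on the minus strand of chromosome 5, within 44.1 kb (GRCm38, GENCODE vM21). Cxcl9 (ENSMUSG00000029417.9) spans chr5:92321347-92328079, Cxcl10 (ENSMUSG00000034855.13) chr5:92346638-92348889 and Cxcl11 (ENSMUSG00000060183.6) chr5:92359544-92365485. GENCODE lists Cxcl11 as a polymorphic pseudogene. Cxcr3 (ENSMUSG00000050232.6) lies on the minus strand of chromosome X at chrX:101731535-101734269. Of the exon bases, 133 of 2252 in Cxcl10 overlap Art3, a gene on the other strand, and 1582 of 3794 in Cxcl11 overlap Gm2673, a processed pseudogene on the other strand. The strand setting of the counting was not given in the sources used here, so reads of these stretches cannot be told apart by gene.

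The 250 bases upstream of the start were read for the pair of ligands with protein-coding genes, because the motifs through which interferons and NF-kappaB are known to act on these genes lie there. Sequences are RefSeq's, on the minus strand of GRCm38.p6, at chr5:92328080-92328329 for Cxcl9 and chr5:92348890-92349139 for Cxcl10. Capitals mark matches to the letters searched on both strands. These were GAAA, any 2 letters and GAAA again for an interferon-stimulated response element (ISRE), and GGG, any 3 or any 2 letters and TTCC for kappaB sites of 10 or 9 letters.
Cxcl9: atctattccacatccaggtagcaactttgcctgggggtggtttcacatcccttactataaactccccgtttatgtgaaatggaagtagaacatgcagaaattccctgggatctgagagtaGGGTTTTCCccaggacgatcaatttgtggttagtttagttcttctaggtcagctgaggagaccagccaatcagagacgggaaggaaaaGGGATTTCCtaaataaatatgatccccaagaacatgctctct
Cxcl10: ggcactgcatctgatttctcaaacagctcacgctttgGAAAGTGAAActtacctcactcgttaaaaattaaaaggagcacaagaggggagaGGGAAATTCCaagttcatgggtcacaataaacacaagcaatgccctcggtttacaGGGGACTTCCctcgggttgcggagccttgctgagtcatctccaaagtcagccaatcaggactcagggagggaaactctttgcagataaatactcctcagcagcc
In Cxcl10, 1 ISRE match, GAAAGTGAAA, lay 213 to 204 bases before the start, and 2 kappaB matches of 10 letters lay at 159 to 150 and 104 to 95, the latter also holding a match of 9 letters. In Cxcl9, 2 kappaB matches of 9 letters lay at 130 to 122 and 42 to 34. Of 32851 promoter windows of the same length, 2.98% held the ISRE letters, 4.65% the kappaB letters of length 10 and 4.98% those of length 9. The letters of a gamma-activated site (TTC, any 3 letters and GAA), held by 7.02% of windows, matched neither window. Sites with other letters were not searched for, so this does not show that either window lacks an element for interferon gamma. These are matches of letters in a short window, chosen with the sequences in view, and say nothing of binding.

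Total counts ranged from 25989217 to 31219650 per library. Levels are in CPM, a count divided by the library size and put on a common scale, with library sizes adjusted by TMM, which corrects for a few abundant genes taking up reads. In cured mice, 13 markers of gastric epithelium, the tissue of origin of the tumor line, summed to between 20.1 and 97.4 CPM, against 1155 to 3924 CPM in untreated mice at 5wk, and Gkn1, Gkn2, Tff1, Tff2 and Muc5ac had at most 3 counts in every cured mouse. Muc5ac also had at most 3 counts in every mouse of 4 of the other groups, and Gkn1 in every dual ICI mouse at 3wk. Anti-PD1 mouse 5 stood apart from its group with 62.3 CPM of these markers, against 2892 to 3760.4 CPM in the other 4 anti-PD1 mice. Skeletal muscle genes took 17.8% to 19.5% of counts in cured mice and 18.0% in anti-PD1 mouse 5, against 4.91% to 16.7% in untreated mice at 5wk. In such bulk samples, fewer cells of a type and less RNA per cell cannot be told apart.

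**Figure D1:**
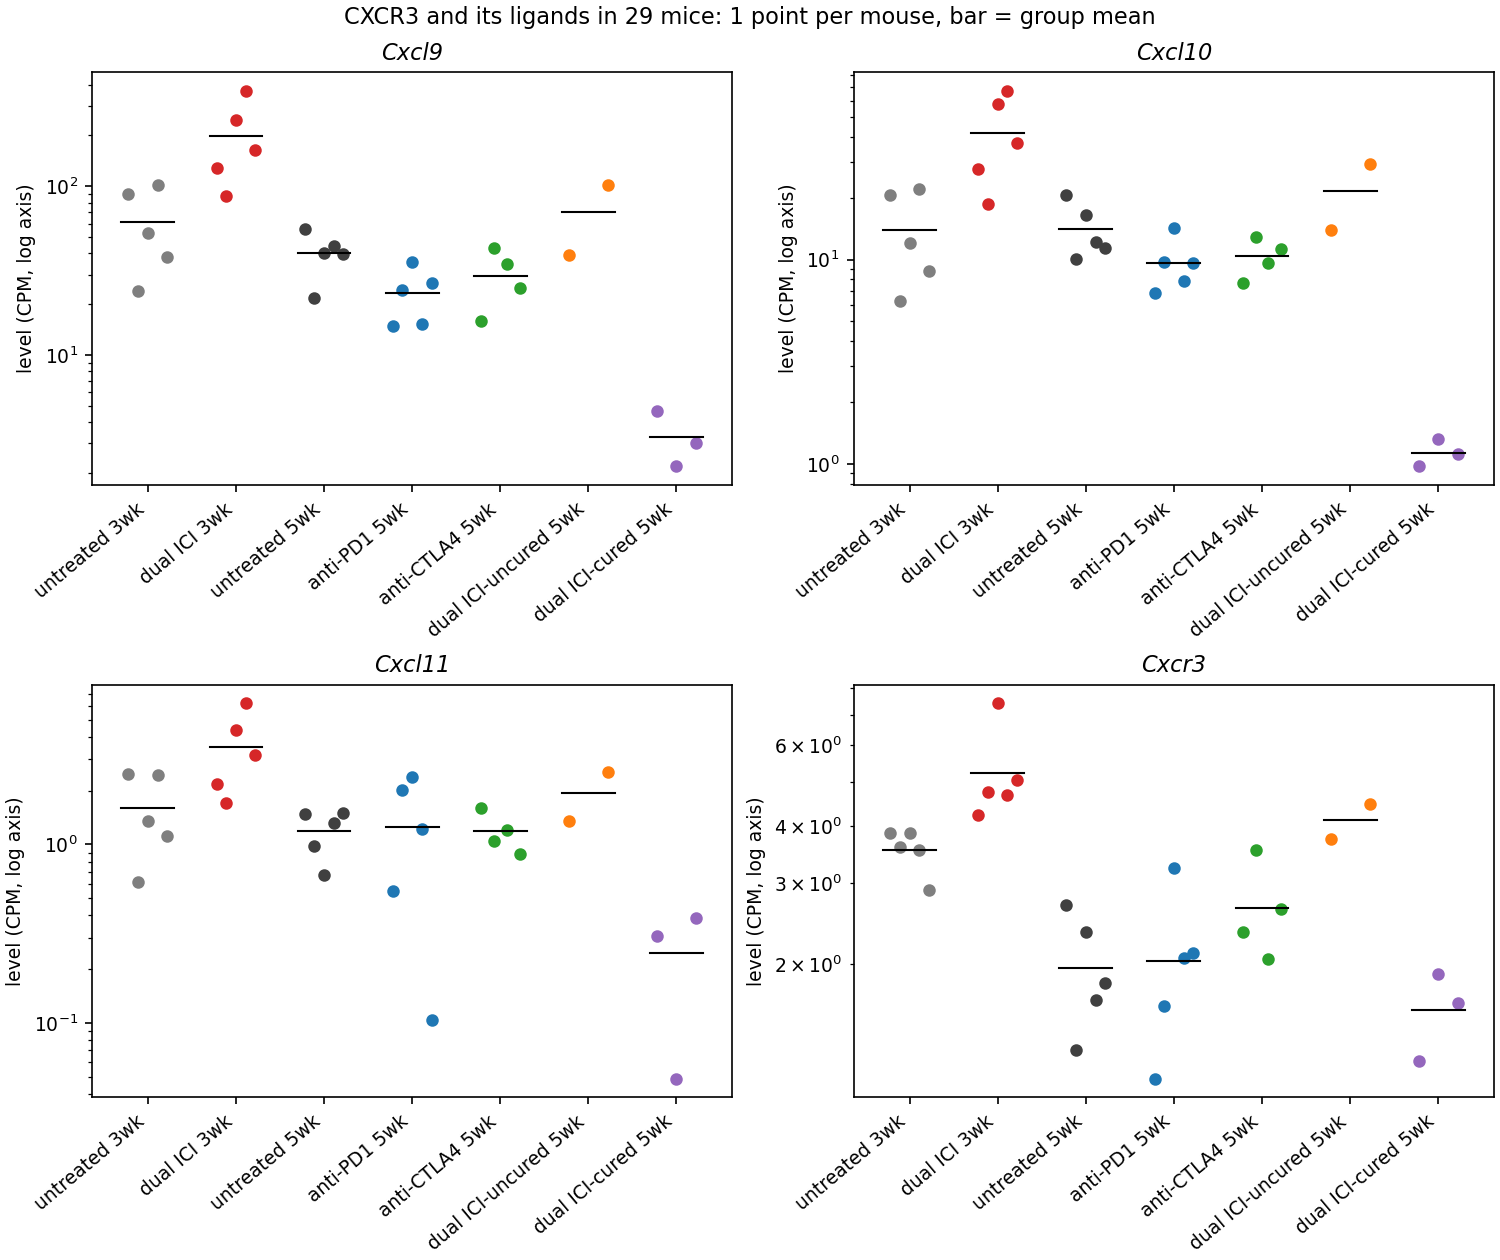
Level of each gene in CPM (log axis) in each mouse of the 7 groups, with 1 point per mouse and a bar at the group mean. The 3 cured mice lie below every other mouse for Cxcl9 (2.19 to 4.66 CPM) and Cxcl10 (0.973 to 1.32 CPM), and the dual ICI mice at 3wk hold the highest mean of all 4 genes.

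Per kilobase of exon, Cxcl9 had the highest group mean of the 4 transcripts in all 7 groups, although in cured mouse 3 Cxcr3 was higher, at 1.10 against 0.727 CPM per kb for Cxcl9. In dual ICI mice at 3wk the mean level was 65.9 ± 36.7 (SD, n = 5) CPM per kb for Cxcl9, 18.5 ± 8.95 for Cxcl10, 3.01 ± 0.727 for Cxcr3 and 0.931 ± 0.475 for Cxcl11. Cxcl9 also varied most, over 167-fold between the lowest mouse (cured mouse 3) and the highest (dual ICI 3wk mouse 4), while Cxcr3 varied over 6.59-fold. For all 4 genes the group means ran highest in dual ICI mice at 3wk, then in uncured mice, and lowest in cured mice. Neighbouring groups in this order overlapped in range for every gene, except that each ligand in cured mice lay below the whole of the next group up.

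The comparison at 3wk asked what dual ICI had done before tumors disappeared. Cxcl9, the ligand most tied to interferon gamma, stood at 90.5, 24.1, 53.0, 102 and 38.3 CPM in untreated mice and at 129, 87.1, 246, 367 and 164 CPM in dual ICI mice. Of the 5 dual ICI mice, 4 lay above the highest untreated mouse, and mouse 2 lay within the untreated range. The mean was 199 ± 111 (SD, n = 5) against 61.5 ± 33.4 CPM (SD, n = 5), a fitted log2 fold change of 1.71 ± 0.45 (SE; 95% interval 0.72 to 2.70). In edgeR's quasi-likelihood test with Benjamini-Hochberg adjustment over 15503 genes, the adjusted p was 0.145, which did not pass the threshold of 0.05.

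Cxcl10, which answers to both interferon classes, followed the same mice. It was at 20.7, 6.27, 12.0, 22.3 and 8.76 CPM in untreated mice and at 27.7, 18.8, 57.5, 66.8 and 37.1 CPM in dual ICI mice. Again 4 of 5 dual ICI mice were above all untreated mice, with mouse 2 as the exception (log2 fold change 1.58 ± 0.41 (SE), edgeR adjusted p = 0.136). Cxcl11 was at 2.49, 0.619, 1.35, 2.45 and 1.11 CPM in untreated mice and at 2.18, 1.71, 4.40, 6.18 and 3.18 CPM in dual ICI mice. Its groups overlapped more, with 3 of 5 dual ICI mice above the untreated range (log2 fold change 1.15 ± 0.43 (SE), edgeR adjusted p = 0.344).

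The receptor showed a smaller difference with less spread. Cxcr3 was at 3.85, 3.60, 3.85, 3.54 and 2.89 CPM in untreated mice and at 4.24, 4.73, 7.41, 4.68 and 5.03 CPM in dual ICI mice. The groups did not overlap, and mouse 3 was well above the rest of its group. With libraries scaled by total counts alone, a setting chosen after seeing the data, the groups overlapped. Dual ICI mouse 1 was then at 3.43 CPM, within the untreated range of 2.72 to 4.05 CPM. The log2 fold change was 0.56 ± 0.19 (SE; 95% interval 0.15 to 0.97) with an edgeR adjusted p of 0.267.

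Thus 0 of the 4 genes passed the test at 3wk, where 0.574% of all genes tested did. In TMM-scaled CPM, 1 of 4 had groups that did not overlap with dual ICI higher, as 1.83% of all genes did. All 4 had an unadjusted p under 0.05, as did 10.7% of all genes. The ligand calls depended on the tool: DESeq2 gave adjusted p values of 0.00666 for Cxcl9 and 0.00729 for Cxcl10 with log2 fold changes of 1.71 and 1.58. A fit of all 29 libraries called Cxcl10 alone of the 4 (edgeR adjusted p = 0.0289). The T cell markers (6 of 7 listed genes were in the table, none at 0) summed to 25.3 to 40.3 CPM in dual ICI mice against 10.1 to 17.4 CPM in untreated mice, and the macrophage markers to 1195 to 2109 against 1038 to 1156 CPM. The part of these cells in the ligand and receptor levels was not tested.

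The comparison of uncured with untreated mice asked whether the axis was engaged in tumors that persisted under dual ICI. Untreated mice at 5wk had Cxcl9 at 56.2, 21.6, 40.3, 44.0 and 39.9 CPM, and uncured mice 1 and 5 had 39.3 and 101 CPM. Cxcl10 was at 20.7, 10.0, 16.5, 12.1 and 11.4 CPM in untreated mice and at 13.9 and 29.4 CPM in the uncured mice. Cxcl11 was at 1.49, 0.976, 0.674, 1.31 and 1.50 CPM in untreated mice and at 1.35 and 2.54 CPM in the uncured mice. For each ligand, uncured mouse 5 lay above all untreated mice and mouse 1 lay among them. The log2 fold changes were 0.80 ± 0.39 (SE) for Cxcl9, 0.61 ± 0.35 for Cxcl10 and 0.70 ± 0.42 for Cxcl11, all with an edgeR adjusted p of 0.734. Without mouse 5 those of Cxcl9 and Cxcl10 were -0.07 and -0.05, so their direction rested on that mouse.

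Cxcr3 was at 2.69, 1.30, 2.35, 1.67 and 1.82 CPM in untreated mice at 5wk and at 3.76 and 4.47 CPM in uncured mice. Both uncured mice lay above every untreated mouse, as they did for 9.22% of all genes. The mean was 4.11 ± 0.507 (SD, n = 2) against 1.97 ± 0.552 CPM (SD, n = 5), with a log2 fold change of 1.05 ± 0.32 (SE; 95% interval 0.32 to 1.78). This did not pass the test (edgeR adjusted p = 0.734), in a comparison where edgeR called 0 of 16156 genes, DESeq2 called 18 and 787 had an unadjusted p under 0.05. DESeq2 gave Cxcr3 an adjusted p of 0.333. The T cell markers summed to 29.4 and 29.0 CPM in uncured mice 1 and 5, against 10.2 to 20.8 CPM in untreated mice, and their part in the Cxcr3 level was not tested.

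**Figure D2:**
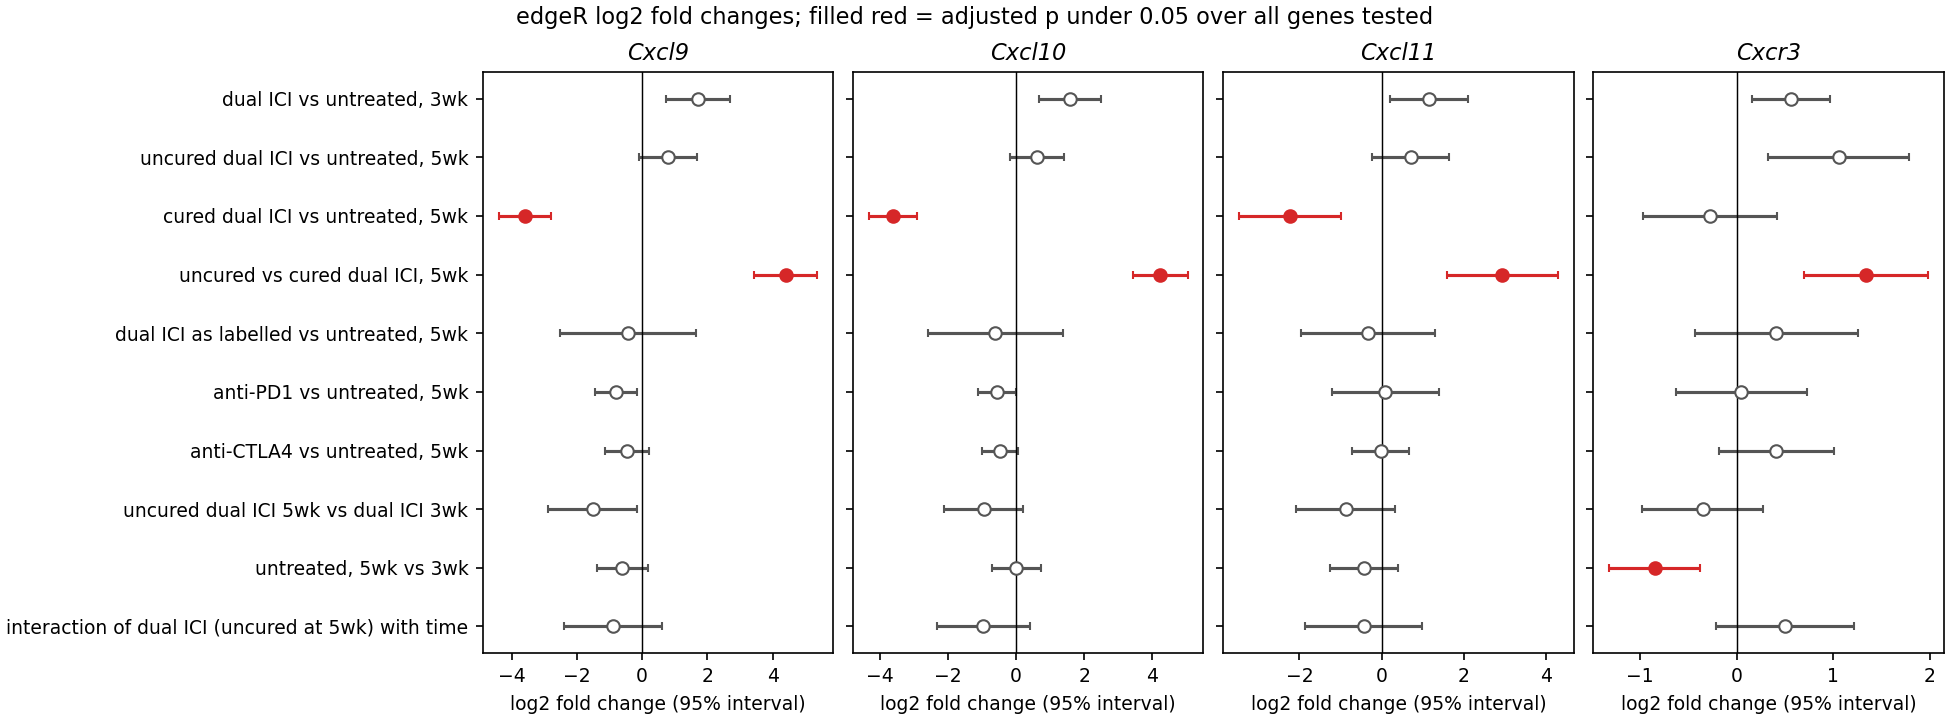
Log2 fold change of each gene with its 95% interval in the 10 comparisons, by edgeR, with filled red points where the adjusted p over all genes tested was under 0.05. All 3 ligands are called lower in cured than in untreated mice and all 4 genes higher in uncured than in cured mice, while Cxcr3 is otherwise called only in untreated mice, lower at 5wk than at 3wk.

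Cured mice had the lowest group means of all 3 ligands. Cxcl9 was at 4.66, 2.19 and 3.00 CPM in cured mice 2, 3 and 4, from 45 to 91 counts per library. Its mean was 3.28 ± 1.26 CPM (SD, n = 3), and that of untreated mice at 5wk 40.4 ± 12.4 CPM (SD, n = 5). The log2 fold change was -3.60 ± 0.35 (SE) or 12.1-fold lower, and the groups did not overlap (edgeR adjusted p = 0.000153). Cxcl10 was at 0.973, 1.32 and 1.11 CPM, from 19 to 27 counts, and its log2 fold change was -3.61 ± 0.31 (SE; edgeR adjusted p = 0.000128). Cxcl11 was at 0.307, 0.0487 and 0.387 CPM, from only 6, 1 and 8 counts, with a log2 fold change of -2.23 ± 0.55 (SE; edgeR adjusted p = 0.0104). For each of the 3 ligands the highest cured mouse was below the lowest untreated mouse.

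The receptor did not follow its ligands in this comparison. Cxcr3 was at 1.23, 1.90 and 1.65 CPM in cured mice, and 2 of the 3 lay within the range of untreated mice at 5wk. The log2 fold change was -0.28 ± 0.31 (SE; 95% interval -0.98 to 0.41) with an edgeR adjusted p of 0.477. So 3 of the 4 genes fell, in a comparison where 44.7% of all genes were called and 26.7% were called lower. Groups did not overlap with cured mice lower for 26.9% of all genes.

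The size of these differences depends on how libraries were scaled, since TMM factors in cured mice (0.698 to 0.730) raised their levels relative to total counts. With total counts alone, a setting chosen after seeing the data, the log2 fold changes were -4.23, -4.24 and -2.81 for Cxcl9, Cxcl10 and Cxcl11 and -0.91 for Cxcr3 (edgeR adjusted p = 0.0890), while the median of all genes moved from -0.05 to -0.64. The ligand calls held with each mouse left out, with adjusted p values up to 0.00167 for Cxcl9, 0.00159 for Cxcl10 and 0.0328 for Cxcl11. Macrophage markers, from a cell type known to secrete these ligands, summed to 705 to 788 CPM in cured mice, within the 508 to 1256 CPM of untreated mice, whereas the gastric epithelium markers fell to the levels given above. The summed markers of T cells, NK cells, neutrophils and mesothelium were lower in every cured mouse than in any untreated mouse at 5wk. Those of CD8 T cells, dendritic cells and fibroblasts overlapped. Endothelial markers were higher in every cured mouse, at 517.7 to 555 CPM against 344 to 507 CPM in untreated mice. As a share of all counts, endothelial markers overlapped, at 0.0361% to 0.0402% in cured and 0.0325% to 0.0483% in untreated mice. By that measure CD8 T cell and dendritic cell markers were lower in every cured mouse, at most 0.000243% and 0.00165%. Untreated mice had at least 0.000245% and 0.00171%. T cell markers summed to 6.92 to 8.91 CPM in cured mice against 10.2 to 20.8 CPM in untreated mice, NK cell markers to 0.387 to 0.779 against 0.973 to 1.43 CPM and neutrophil markers to 4.43 to 7.75 against 26.4 to 87.3 CPM. Mesothelium markers summed to 32.6 to 133 CPM in cured mice against 139.5 to 463 CPM in untreated mice. The part of tissue content, tumor and immune cells included, in the ligand levels was not tested.

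Against cured mice, uncured mice were higher for all 4 genes, with no overlap. The log2 fold changes were 4.40 ± 0.42 (SE) for Cxcl9, 4.23 ± 0.35 for Cxcl10, 2.93 ± 0.59 for Cxcl11 and 1.34 ± 0.28 for Cxcr3. The fitted differences correspond to 21.2-fold for Cxcl9 and 2.53-fold for Cxcr3. The edgeR adjusted p values were 2.4e-05, 1e-05, 0.00197 and 0.0025. All 4 of 4 were called, but so were 70.0% of all genes, with 36.9% called higher, and 43.7% of all genes had uncured mice above all cured mice. With each mouse left out, all 4 calls held, but without uncured mouse 5 the log2 fold changes were 3.54 for Cxcl9 and 3.57 for Cxcl10.

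Taken as the labels group them, the 5 dual ICI mice at 5wk spanned both outcomes. Cxcl9 ran from 2.19 to 101 CPM and Cxcl10 from 0.973 to 29.4 CPM among them. Their means of 30.1 ± 42.8 and 9.35 ± 12.5 CPM (SD, n = 5) had an SD larger than the mean. The log2 fold changes against untreated mice were -0.43 ± 0.94 (SE) for Cxcl9, -0.60 ± 0.89 for Cxcl10, -0.34 ± 0.73 for Cxcl11 and 0.41 ± 0.38 for Cxcr3. Without uncured mouse 5 those of the ligands were -1.73, -1.71 and -1.15. With all mice the edgeR adjusted p values lay between 0.672 and 0.825, in a comparison that called 0 genes (DESeq2 called 56, and 1071 had an unadjusted p under 0.05).

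With anti-PD1 alone, Cxcl9 was at 14.9, 24.3, 35.5, 15.3 and 26.8 CPM, and 2 of the 5 mice lay below all untreated mice. Cxcl10 was at 6.88, 9.68, 14.2, 7.87 and 9.65 CPM, with 4 of 5 mice below all untreated mice. The log2 fold changes were -0.79 ± 0.29 (SE) and -0.55 ± 0.25, and neither passed the test (edgeR adjusted p = 1.00 for both, unadjusted p = 0.0202 and 0.0503). Cxcl11 was at 0.546, 2.02, 2.40, 1.22 and 0.103 CPM, the last from 2 counts, and Cxcr3 at 1.13, 1.62, 3.25, 2.06 and 2.12 CPM. Both overlapped the untreated mice (log2 fold changes 0.09 ± 0.59 and 0.04 ± 0.31).

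In TMM-scaled CPM, anti-PD1 mouse 5 joined Cxcl9 and Cxcl10 levels like those of its group to gastric epithelium markers like those of cured mice. Its gastric epithelium markers (62.3 CPM) lay within the cured range. Its Cxcl9 of 26.8 CPM and Cxcl10 of 9.65 CPM lay above all cured mice and within the range of the other anti-PD1 mice. With total counts alone both stayed above all cured mice. Its Cxcl10 was then 6.68 CPM, below the 7.24 to 16.8 CPM of the other anti-PD1 mice, and its Cxcl9 of 18.5 CPM lay within their 15.7 to 42.0 CPM. Its macrophage markers summed to 770.0 CPM, within the 705 to 788 CPM of cured mice. That sum also lay within the 667 to 1335 CPM of the other anti-PD1 mice. Its markers of T cells (10.9 CPM), NK cells (1.08), dendritic cells (24.5), fibroblasts (5408) and endothelium (589) lay above those of all cured mice. Its CD8 T cell markers (2.68 CPM) lay within the cured range. The part of tissue content in its ligand levels was not tested. Its Cxcl11, unlike its Cxcl9 and Cxcl10, lay within the cured range. The study describes an anti-PD1 mouse as cured, but which library it is was not given in the sources used here, so the anti-PD1 group mixes outcomes. Without it the log2 fold changes between anti-PD1 and untreated mice were -0.85 for Cxcl9, -0.56 for Cxcl10, 0.37 for Cxcl11 and 0.02 for Cxcr3, and none passed the test.

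**Figure D3:**
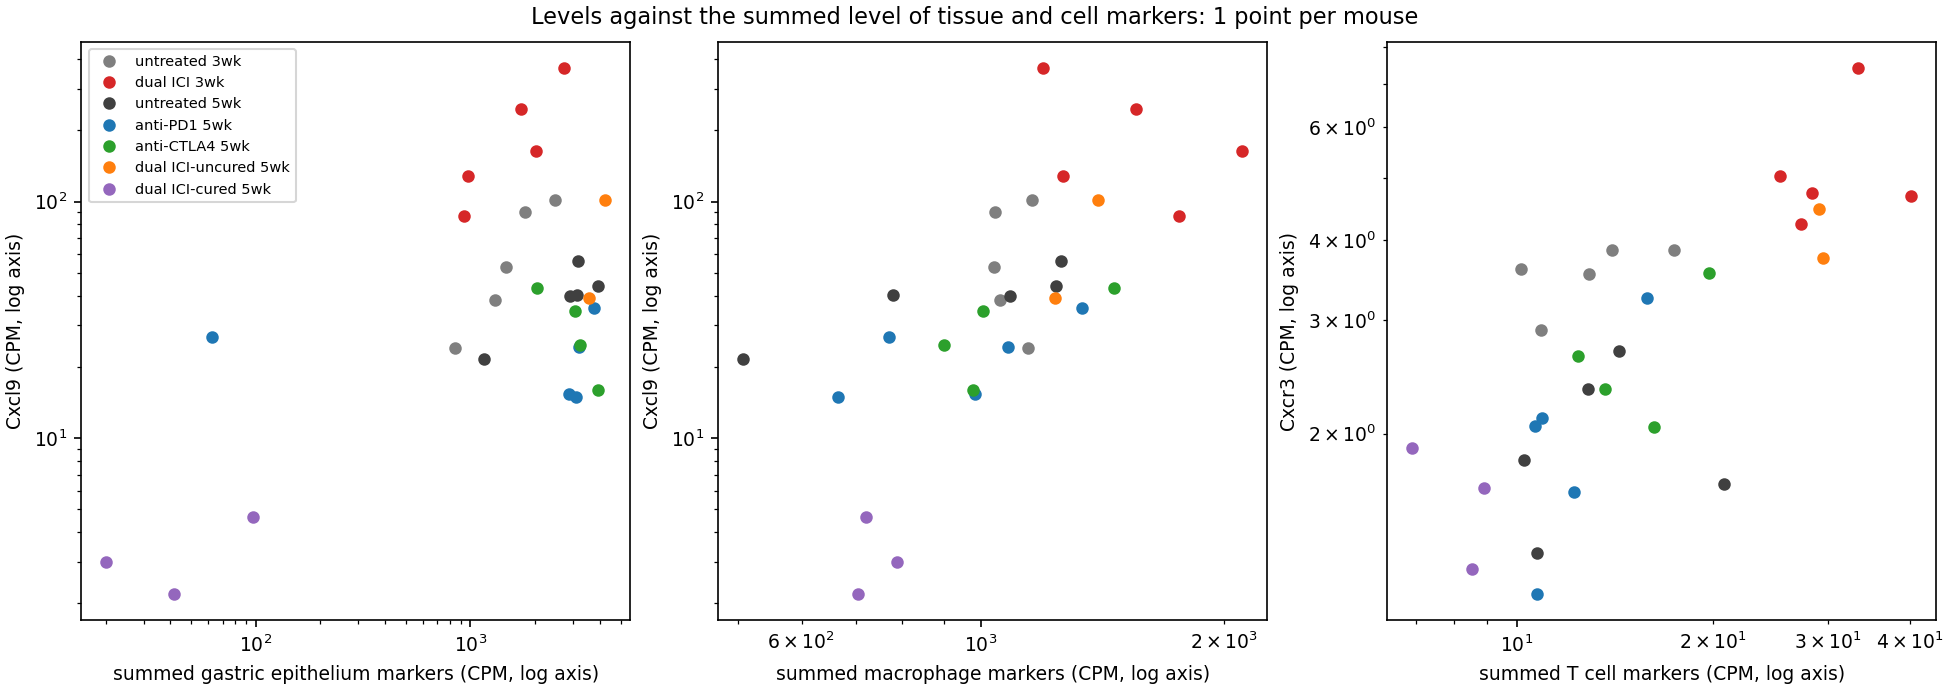
Level of Cxcl9 against the summed gastric epithelium markers and the summed macrophage markers, and level of Cxcr3 against the summed T cell markers, all in CPM on log axes with 1 point per mouse. Anti-PD1 mouse 5 sits with the cured mice on the gastric epithelium axis at 62.3 CPM but above them in Cxcl9 at 26.8 CPM.

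With anti-CTLA4 alone, Cxcl9 was at 15.9, 43.0, 34.4 and 24.9 CPM and Cxcl10 at 7.71, 12.9, 9.62 and 11.2 CPM. Cxcl11 was at 1.60, 1.05, 1.20 and 0.881 CPM and Cxcr3 at 2.34, 3.55, 2.05 and 2.64 CPM. Each gene overlapped the untreated mice. The log2 fold changes were -0.46 ± 0.31 (SE), -0.46 ± 0.24, -0.02 ± 0.31 and 0.41 ± 0.27, all with an edgeR adjusted p of 1.00. In both monotherapy comparisons edgeR and DESeq2 called 0 genes, with 205 genes at an unadjusted p under 0.05 for anti-PD1 and 128 for anti-CTLA4. The 95% intervals for Cxcl9 ran from -1.43 to -0.15 with anti-PD1 and from -1.14 to 0.22 with anti-CTLA4.

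Time was compared within each treatment. Library numbers in the labels run separately for 3wk and for 5wk, so day and numbering cannot be told apart. By the study's schedule, mice kept to 5wk were also given more doses than mice taken at 3wk. Day and number of doses therefore cannot be told apart either. In untreated mice Cxcr3 fell from 3.55 ± 0.393 CPM (SD, n = 5) at 3wk to 1.97 ± 0.552 CPM (SD, n = 5) at 5wk. The log2 fold change was -0.85 ± 0.21 (SE; edgeR adjusted p = 0.0310), and every 5wk mouse lay below every 3wk mouse, as for 5.20% of all genes. It was the 1 of 4 called, where 10.8% of all genes were called and 4.58% called lower. With total-count scaling the groups overlapped, untreated 5wk mouse 1 at 3.23 CPM and untreated 3wk mouse 5 at 2.72 CPM. The call was lost with that scaling (log2 fold change -0.72, edgeR adjusted p = 0.150). It was also lost in 6 of 10 fits with 1 mouse left out, untreated 5wk mice 4 and 5 and untreated 3wk mice 1, 2, 3 and 5, with adjusted p values between 0.0529 and 0.0748. The T cell markers summed to 10.1 to 17.4 CPM at 3wk and 10.2 to 20.8 CPM at 5wk, and these ranges overlapped. Of 12 genes of lymphocytes that carry CXCR3, 1 was called lower and 0 higher, where 4.58% of all genes were called lower. Dendritic cell markers summed to 31.3 to 36.2 CPM at 3wk and 17.5 to 32.5 CPM at 5wk. Fibroblast markers summed to 7997 to 12191 CPM at 3wk and 4285 to 7282 CPM at 5wk, and the part of tissue content in the Cxcr3 level was not tested.

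The ligands of untreated mice overlapped between the days. The log2 fold changes from 3wk to 5wk were -0.60 ± 0.36 (SE) for Cxcl9, 0.02 ± 0.33 for Cxcl10 and -0.43 ± 0.38 for Cxcl11, with edgeR adjusted p values between 0.279 and 0.981. In dual ICI mice, the uncured mice at 5wk had Cxcl9 at a log2 fold change of -1.51 ± 0.60 (SE) from the 3wk mice, Cxcl10 at -0.95 ± 0.51, Cxcl11 at -0.88 ± 0.53 and Cxcr3 at -0.36 ± 0.27. None passed the test (edgeR adjusted p = 0.141 for Cxcl9), where 5.31% of all genes did. DESeq2 gave Cxcl9 an adjusted p of 0.0384. Without uncured mouse 5 the log2 fold changes of Cxcl9, Cxcl10 and Cxcl11 were -2.34, -1.58 and -1.40, and without uncured mouse 1 they were -0.97, -0.50 and -0.48. The 3wk mice were not followed to 5wk, so their later outcomes were not known.

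An interaction term tested whether the difference between dual ICI and untreated mice at 3wk differed from that between uncured and untreated mice at 5wk. The uncured mice had also been given more doses, so this term does not separate day from doses. The differences in log2 fold change (5wk less 3wk) were -0.90 ± 0.71 (SE) for Cxcl9, -0.96 ± 0.64 for Cxcl10, -0.43 ± 0.67 for Cxcl11 and 0.50 ± 0.34 for Cxcr3. None passed (edgeR adjusted p between 0.707 and 0.866). Without uncured mouse 5 those of Cxcl9, Cxcl10 and Cxcl11 were -1.74, -1.60 and -0.96, and without uncured mouse 1 they were -0.37, -0.52 and -0.05. The test called 0 of 16542 genes, DESeq2 called 1 and 1050 had an unadjusted p under 0.05.

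Ratios of counts within a library do not depend on how libraries are scaled, and are given here as descriptions without a test. The ratio of Cxcl9 to Cxcl10 counts was 3.84 to 5.49 in the 10 mice at 3wk, treated or not. In the 16 mice at 5wk other than the cured it was 1.94 to 3.63, so that none of these 16 mice reached the lowest 3wk mouse. Day and library numbering cannot be told apart here either. How many other gene pairs separate the days in this way was not counted. In cured mice it was 4.79, 1.67 and 2.70, from 19, 27 and 23 Cxcl10 counts. Within 3wk the ratio of Cxcl9 to Cxcl11 was 34.4 to 41.4 in untreated mice and 50.8 to 59.4 in dual ICI mice, and that of Cxcl10 to Cxcl11 7.87 to 10.1 and 10.8 to 13.1. Both ratios were thus higher in every dual ICI mouse than in any untreated mouse at 3wk. At 5wk both uncured mice lay within the untreated ranges, which were 22.2 to 59.8 for Cxcl9 to Cxcl11 and 7.59 to 24.4 for Cxcl10 to Cxcl11. The share of other gene pairs that separate groups in this way was not counted, here or for the ratios to Spp1, Cd3e and Cd8a below.

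Spp1 encodes osteopontin, and the balance of CXCL9 against SPP1 is used to describe the state of tumor macrophages. The ratio of Cxcl9 to Spp1 counts was 0.109 to 0.310 in untreated mice and 1.26 to 2.50 in dual ICI mice at 3wk, without overlap. At 5wk it was 0.0466 to 0.147 in untreated mice, 0.0785 and 0.249 in uncured mice and 0.258 to 0.405 in cured mice. Anti-PD1 mouse 5 had a ratio of 2.52, just above the highest dual ICI mouse at 3wk. It had 206 Spp1 counts, where the other anti-PD1 mice had 13960 to 18177. These are ratios of bulk tissue that differs in tumor content, so they are not read here as a macrophage state. The part of tissue content in them was not tested. In cured mice both genes were low, with Spp1 at 10.7 ± 6.44 CPM (SD, n = 3) against 499.7 ± 260.3 CPM (SD, n = 5) in untreated mice (edgeR adjusted p = 0.000298). At 3wk Spp1 was at a log2 fold change of -1.30 ± 0.42 (SE) with dual ICI (edgeR adjusted p = 0.255).

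Cxcr3 was also set against T cell genes of the same library. The ratio of Cxcr3 to Cd3e counts, Cd3e being a subunit of the T cell receptor complex, was 1.09 to 2.21 in untreated mice and 0.426 to 0.934 in dual ICI mice at 3wk, and that of Cxcr3 to Cd8a 0.917 to 2.33 and 0.201 to 0.598. Both were lower in every dual ICI mouse than in any untreated mouse, so Cxcr3 counts differed less between the groups than those of Cd3e or Cd8a. In cured mice the ratio of Cxcr3 to Cd3e was 2.67, 2.79 and 1.00, from 9, 14 and 34 Cd3e counts, against 0.653 to 1.19 in untreated mice at 5wk. That of Cxcr3 to Cd8a was 0.400, 1.625 and 0.944 in cured mice and overlapped the 0.353 to 0.842 of untreated mice. In uncured mice 1 and 5 the ratio to Cd3e was 0.688 and 0.901 and that to Cd8a 0.438 and 0.495, within the untreated ranges.

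**Figure D4:**
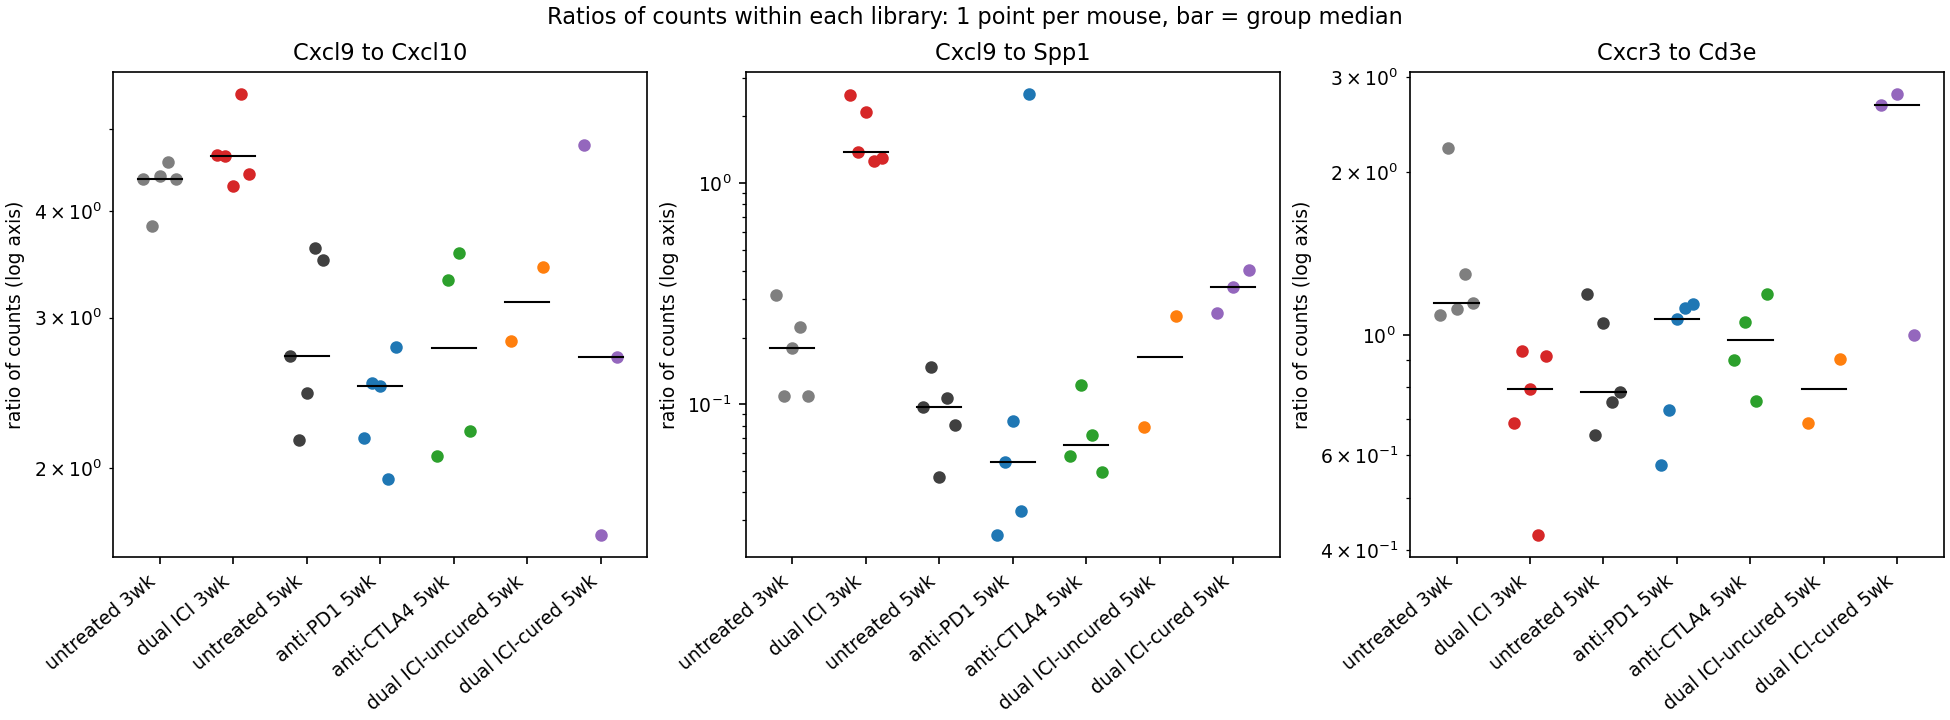
Ratio of counts within each library (log axis) for Cxcl9 to Cxcl10, Cxcl9 to Spp1 and Cxcr3 to Cd3e, with 1 point per mouse and a bar at the group median. The Cxcl9 to Cxcl10 ratio separates the 3wk mice (3.84 to 5.49) from the 5wk mice other than the cured (1.94 to 3.63), and the Cxcl9 to Spp1 ratio separates dual ICI from untreated mice at 3wk. Other gene pairs that separate these mice were not counted.

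The inducers of the ligands were read from a list of 8 interferon gamma pathway genes. At 3wk, 0 of 8 passed the test, where 0.574% of all genes did, and 7 of 8 had a log2 fold change above 0. The median was 0.41 against 0.02 over all genes. Ifng itself was at 1.21 ± 0.561 (SD, n = 5) CPM in dual ICI mice and 0.263 ± 0.144 CPM (SD, n = 5) in untreated mice. The groups did not overlap, with dual ICI higher, as for 1.83% of all genes. Its log2 fold change was 2.20 ± 0.44 (SE; edgeR adjusted p = 0.0539). Irf1, a transcription factor that interferon gamma induces, was at 0.72 ± 0.20 (SE; edgeR adjusted p = 0.167). Of 7 type I interferon pathway genes tested, 0 were called and the median was 0.08.

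In cured against untreated mice Irf1 fell, with a log2 fold change of -1.09 ± 0.21 (SE; edgeR adjusted p = 0.00363). In all, 1 of the 7 interferon gamma pathway genes tested there rose and 3 fell, and 0 of 7 type I genes rose and 2 fell, where 18.0% of all genes were called higher and 26.7% lower. In uncured against cured mice, 5 of 7 interferon gamma pathway genes were called higher and 1 lower, and 6 of 7 type I genes higher and 0 lower, where 70.0% of all genes were called and 36.9% called higher.

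**Figure D5:**
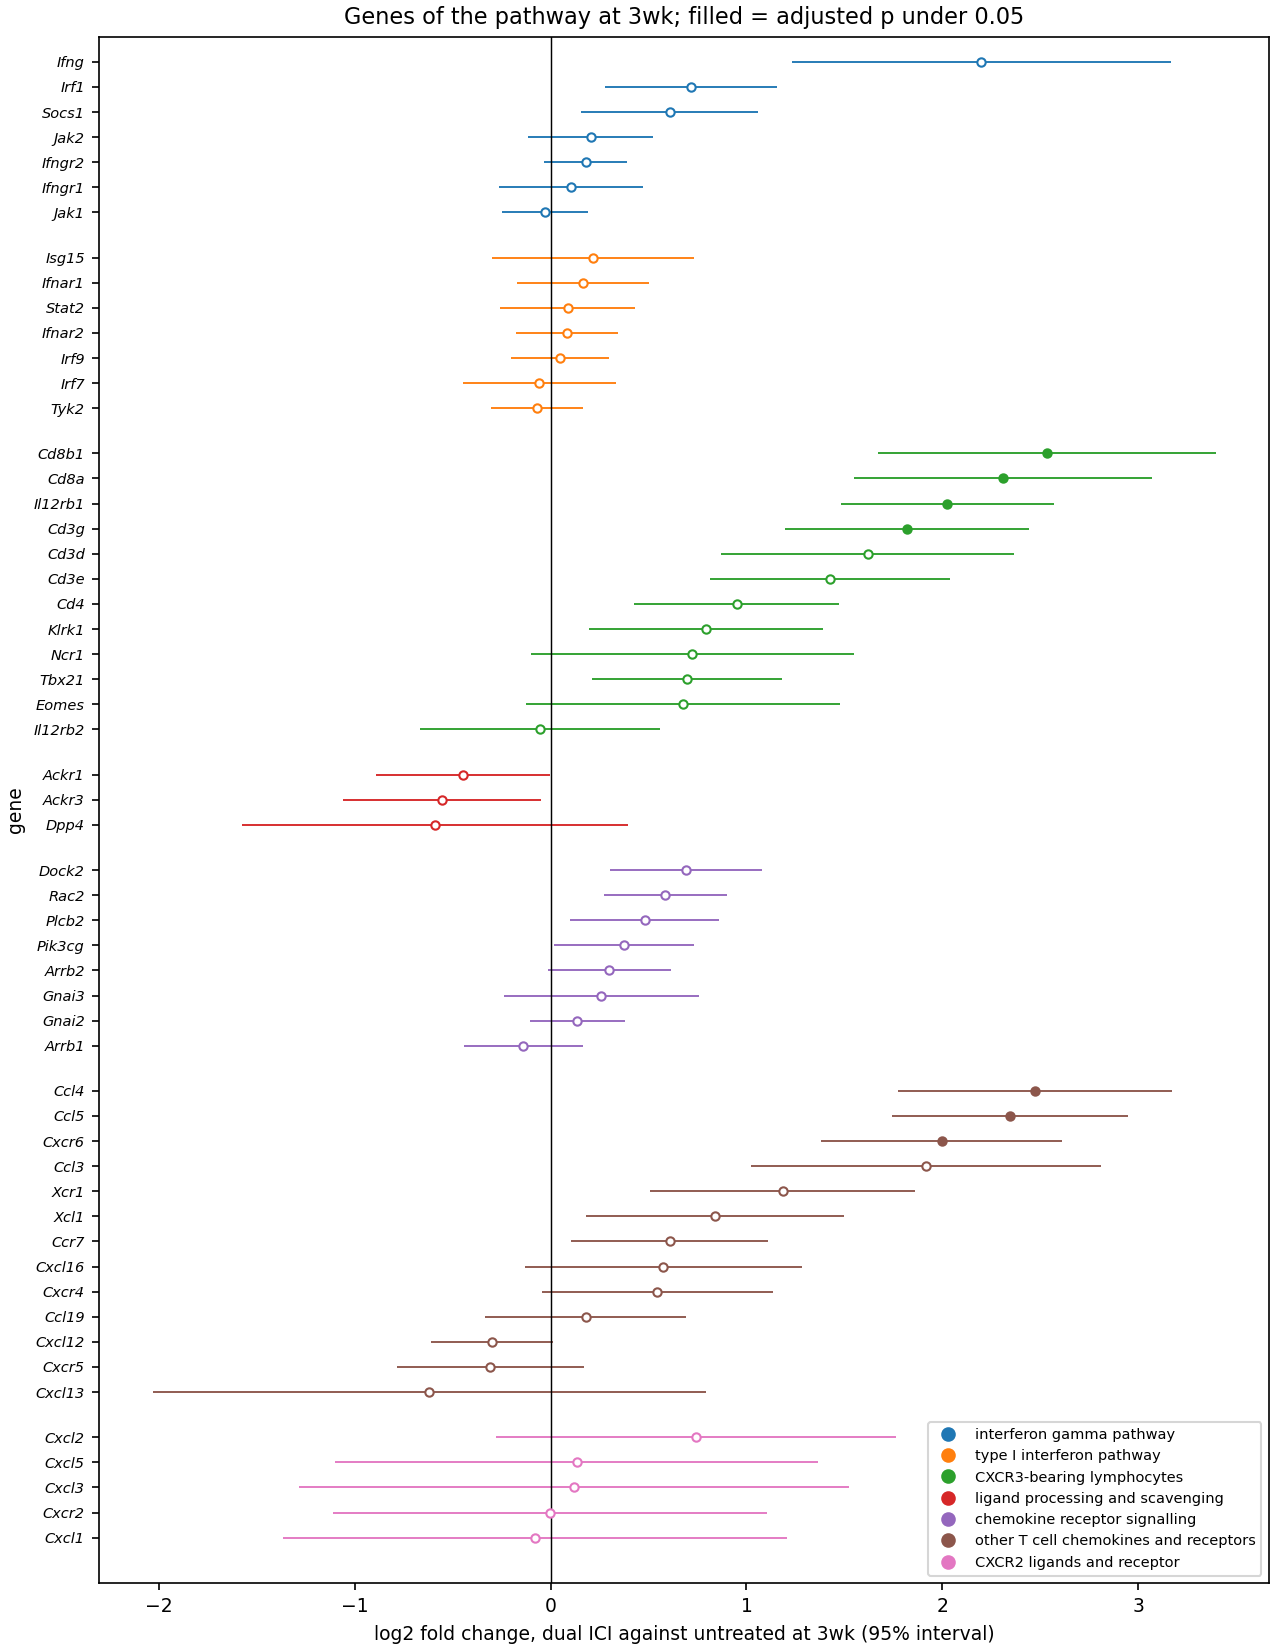
Log2 fold change with its 95% interval for the genes reported from the 7 pathway lists, dual ICI against untreated mice at 3wk, with filled points where the adjusted p was under 0.05. The called genes are 4 lymphocyte genes and 3 genes of other T cell chemokines and receptors, all higher with dual ICI, where 0.471% of all genes were called higher.

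Among 12 genes of the lymphocytes that carry CXCR3, 4 rose with dual ICI at 3wk, where 0.471% of all genes were called higher. They were Cd8a (log2 fold change 2.31 ± 0.35 (SE), edgeR adjusted p = 0.0193), Cd8b1, Cd3g and Il12rb1. The median of the list was 1.19, and the log2 fold change of Cxcr3 was 0.56. Tbx21, encoding the factor T-bet that drives Cxcr3 in T cells, was at 0.70 ± 0.22 (SE; edgeR adjusted p = 0.242), close in size to Cxcr3. Cd3e was at 1.43 ± 0.28 (SE; edgeR adjusted p = 0.0530). In cured against untreated mice 6 of 11 tested fell and 1 rose, where 26.7% of all genes were called lower and 18.0% higher, and Tbx21 was at 0.39 ± 0.42 (SE; edgeR adjusted p = 0.467).

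Other chemokines that draw T cells were called where the CXCR3 ligands were not. Of 14 genes tested at 3wk, 3 rose, where 0.471% of all genes were called higher. Ccl5, which draws effector T cells, rose by 2.34 ± 0.28 (SE) on the log2 scale (edgeR adjusted p = 0.00681). Ccl4, which also draws T cells, rose by 2.47 ± 0.32 (edgeR adjusted p = 0.0119), and Cxcr6, the receptor of CXCL16, by 2.00 ± 0.28 (edgeR adjusted p = 0.0162). Cxcl16 was at 0.58 ± 0.32 (SE; edgeR adjusted p = 0.586). No test compared these genes with Cxcl9 or Cxcl10. In cured against untreated mice 9 of 14 fell and 1 rose, where 26.7% of all genes were called lower and 18.0% higher. Those that fell included Ccl5 (log2 fold change -1.44 ± 0.36 (SE), edgeR adjusted p = 0.0111) and Cxcl16 (-3.09 ± 0.27, adjusted p = 0.000128). For CXCR2, a receptor of neutrophils, and its ligands, 0 of 5 genes tested were called at 3wk, where 0.574% of all genes were. In cured against untreated mice Cxcr2 and the ligand genes Cxcl1, Cxcl2, Cxcl3 and Cxcl5 were the 5 of 5 tested that fell, where 26.7% of all genes were called lower, with Cxcl5 at 0.337 ± 0.380 CPM (SD, n = 3) against 90.7 ± 43.4 CPM (SD, n = 5) in untreated mice.

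Of 3 genes listed for trimming or scavenging chemokines, 2 were called higher in cured than in untreated mice. Dpp4 encodes a peptidase that cuts and inactivates CXCR3 ligands. Ackr3 encodes a scavenging receptor of CXCL12 and of CXCL11, which these mice do not make as a functional protein. In cured mice Dpp4 rose to 53.0 ± 10.9 CPM (SD, n = 3) from 20.8 ± 3.27 CPM (SD, n = 5) in untreated mice (log2 fold change 1.37 ± 0.18 (SE), edgeR adjusted p = 0.000509) and Ackr3 rose by 0.91 ± 0.17 (edgeR adjusted p = 0.00299). These were 2 of the 3 genes of the list, where 18.0% of all genes were called higher. The third, Ackr1, was not called and had a log2 fold change below 0. A link between these genes and the ligand transcripts was not tested, nor was the part of tissue content in their levels. At 3wk, where 0.574% of all genes were called, 0 of 3 were, with Dpp4 at -0.59 ± 0.45 (SE) and Ackr3 at -0.56 ± 0.23. Of 8 genes tested for signalling below the receptor, 0 were called at 3wk (median 0.34), 3 fell in cured against untreated mice (26.7% of all genes were called lower) and 8 of 8 were called higher in uncured than in cured mice (36.9% of all genes were), Rac2 by 0.76 ± 0.10 (SE; edgeR adjusted p = 0.000166).

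The genes whose pattern was most like each member were named by Pearson's r of log2 CPM over the 29 libraries, among 16700 genes. The libraries share group, day and scaling, so r is a description. For Cxcl9 they were Cxcl10 (r = 0.968), Il18bp (0.966), Ifi47 (0.952), AW112010 (0.952) and Ubd (0.948), of which Il18bp encodes the inhibitor that binds interleukin 18 and Ifi47 an interferon-inducible GTPase. For Cxcl10 they were Cxcl9, Ubd (0.952), Il18bp (0.946), Irg1 (0.941) and Ifi47 (0.939). For Cxcr3 they were Lcp2 (0.944), Ptprc (0.924), Klra2 (0.917), Clec4a3 (0.906) and Gm1966 (0.899), where Lcp2 encodes the adaptor SLP-76 and Ptprc the leukocyte antigen CD45.

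Cxcl11 had other genes nearest to it, Ms4a6d (r = 0.896), Sectm1a (0.895), Tlr1 (0.892), Oip5 (0.887) and Nsl1 (0.884), and its r with Cxcl9 was 0.828. After removing group means, r with Cxcl9 was 0.884 for Cxcl10, 0.509 for Cxcl11 and 0.412 for Cxcr3. Cxcl9 and Cxcl10 thus went together from mouse to mouse within groups more closely than either went with the receptor, whose r with Cxcl10 within groups was 0.567.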

How the data were processed

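Whole-tissue RNA of 29 mice was sequenced with paired-end reads of 150 bp. Per the labels, the authors deposited raw counts per gene and library, without normalization. The submitters' processing notes name STAR 2.7.0f and featureCounts 1.6.4 with mm10, while the study's methods name STAR with HTSeq; strand and annotation are not given in the sources used here. Library totals are given with the results, and p-values measure the spread between mice together with counting error.

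From these counts, edgeR 4.0.16 in R 4.3.3 (TMM, low counts removed by filterByExpr, quasi-likelihood test by glmQLFTest, p-values two-sided and adjusted by Benjamini-Hochberg over all genes tested, threshold 0.05) was fitted with only the groups compared. The study used DESeq2 for its own comparisons. The standard error is the log2 fold change divided by the root of the F statistic, and the intervals are 95% intervals. CPM used TMM-scaled sizes over all 29 libraries, and CPM per kb the union of exons in GENCODE vM21. The fits were tested on simulated data. Every pair of mice of a group differed beyond sampling noise.

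The members, lists, motifs and named genes were chosen with earlier results of these data known. Named were the 4 members, 13 genes of the pathway always, the 2 genes of each list with the largest change at 3wk, and the 5 genes most like each member. Some genes of the lists count in the totals but are not reported here by name. Alternatives were DESeq2 1.42.0, no filter on low counts, normalization by the upper quartile, all 29 libraries in 1 fit, the replicate number as a block, skeletal muscle genes removed, each mouse left out and, chosen after seeing the data, scaling by total counts. Figures were drawn with matplotlib 3.10.9.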

Additional observations from a re-analysis of the deposited data

Results flagged for a closer look

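In dual ICI mice at 3wk, Cxcr3 in mouse 3 stood at 7.41 CPM, where the next highest mouse had 5.03 CPM. The gap was 0.750 of the group's range, beyond Dixon's critical value for 5 samples. Chance gives such a gap in about 5% of groups, and each gene was looked at in the groups of 4 or 5 mice. Without mouse 3 the log2 fold change of Cxcr3 between dual ICI and untreated mice at 3wk was 0.40, the lowest of the 10 fits with 1 mouse left out.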

How the results depend on the processing

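For dual ICI against untreated mice at 3wk, edgeR called 89 genes, DESeq2 507, total-count scaling 15 and the replicate block 209. DESeq2 and the block called Cxcl9 (log2 fold changes 1.71 and 1.72, adjusted p = 0.00666 and 0.00816). DESeq2, the fit of all 29 libraries and the block called Cxcl10 (1.58, 1.57 and 1.59, adjusted p = 0.00729, 0.0289 and 0.0120). DESeq2 called 18 genes in uncured and 56 in labelled dual ICI mice against untreated mice, 1 in the interaction, and 3141 against 1687 between the days in untreated mice. The block called 4016 genes against 7067 in cured against untreated mice. For uncured mice at 5wk against dual ICI mice at 3wk, edgeR called 857 genes, DESeq2 3173, the fit of all libraries 237 and the block 3192, and Cxcl9 was called by DESeq2 (-1.50, adjusted p = 0.0384) and the block (-1.22, adjusted p = 0.00877). The replicate numbers mark different mice, whose correlations of deviations ran from -0.647 to 0.640 with 10 of 31 pairs above 0.1. The submitters' longer library names give most dual ICI libraries at 3wk other numbers than their titles do, with gaps. Mouse numbers here follow the titles. At 3wk 2 of 5 mice correlated best with their own number. The numbers were therefore not read as a pairing. Uncured and cured mice share no number, so no paired fit was made for them. Scaling by total counts moved the median log2 fold change of all genes to -0.64 in cured against untreated mice, 0.84 in uncured against cured, 0.19 in uncured against untreated, -0.22 in labelled dual ICI against untreated mice, 0.26 in uncured against 3wk dual ICI mice, 0.11 between the days in untreated mice and 0.14 in the interaction, from between -0.05 and 0.05. It ended the call of Cxcr3 between the days in untreated mice (-0.72, adjusted p = 0.150). Values near 0 changed sign: in anti-PD1 mice Cxcl11 with the block (-0.26) and Cxcr3 with total counts (-0.00795), and in anti-CTLA4 mice Cxcl11 with total counts (0.0496) and with the block (0.0934).

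With each mouse left out in turn, genes called at 3wk ranged from 6 (without untreated mouse 5) to 119, and leaving out any untreated mouse, or dual ICI mouse 3 or 5, moved the count by over 1.5 times. The count ranged from 4491 (without cured mouse 3) to 9388 in cured against untreated mice and from 654 (without 3wk mouse 5) to 4915 (without 5wk mouse 2) between the days in untreated mice. In uncured against 3wk dual ICI mice it ranged from 0 (without uncured mouse 1) to 4006 (without 3wk mouse 4). Log2 fold changes in uncured against untreated mice ranged from -0.0651 to 1.33 for Cxcl9 and from -0.0488 to 1.06 for Cxcl10, both lowest without uncured mouse 5. They ranged from -0.27 to 0.37 for Cxcl11 and from -0.19 to 0.20 for Cxcr3 with anti-PD1, from -0.21 to 0.0928 for Cxcl11 with anti-CTLA4, and from -0.17 to 0.23 for Cxcl10 between the days. Cxcr3 ranged from -0.98 to -0.74 between the days and lost its call without 5wk mouse 4 or 5 or 3wk mouse 1, 2, 3 or 5. A lone uncured mouse was assumed to vary like the group it was compared with. By Spearman's rho, 3 of the 5 genes nearest to Cxcl9, 3 of those nearest to Cxcl10 and 1 of those nearest to Cxcl11 were the same as by Pearson's r. No other call of the 4 genes changed under these settings, and the cause of the changes was not tested. Cxcl11 in cured mice rests on 1 to 8 counts, which limits its fold change.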
